A study of Amaranthus hybridus and Amaranthus hypochondriacus with 18 samples.

Results

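Leaves of *Amaranthus hypochondriacus* that had gone without water were compared directly with leaves of the same cultivar that had been watered with salt, transcript by transcript. The members are the 3 water-deficit and the 3 salt libraries of this species, 6 of the 18 libraries of the series, and all 30946 transcripts of its count table. The plants were cv. Nutrisol, labelled wild type. They spent 11 days in a growth chamber and 19 days in a greenhouse before treatment. Salt-stressed plants then received 100 ml NaCl solution a day, at 0.15 M for 7 days, 0.3 M for 4 days and 0.5 M for 3 days. In the water-deficit group irrigation was withheld for 14 days. The 3 control libraries came from watered plants of the same age. Every library was made from total RNA of the leaves in positions 5, 6 and 7 below the apex, pooled from 3 plants, and the 3 libraries of a group are biological replicates. Both stresses were therefore measured once, at the end of 14 days, and nothing in the labels says that they were matched for the water status of the leaf.

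Salt and drought share an osmotic part, because both make it harder for roots to take up water, and salt adds a load of sodium and chloride ions. Leaves commonly answer with abscisic acid signalling, with compatible solutes such as proline, glycine betaine and raffinose sugars, and with protective proteins such as dehydrins and chaperones. Amaranths are C4 plants of the NAD-malic enzyme type. Phosphoenolpyruvate carboxylase in the mesophyll fixes bicarbonate, aspartate carries the carbon to the bundle sheath, and NAD-malic enzyme in bundle-sheath mitochondria releases it again for Rubisco.

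The deposited values are raw counts of reads per assembled transcript. They were scaled by TMM, a correction for library composition, and are given as CPM, a transcript's count scaled to a common library size. The salt libraries held 17.2 to 20.5 M counts (M, mega) and the water-deficit libraries 10.9 to 15.9 M. Between 92.7% and 97.1% of a library's counts fell on the 20 most abundant transcripts. The rest of a library held 0.792 to 1.5 M counts under salt and 0.320 to 0.932 M under water deficit. Water-deficit replicate 2 was the smallest and stood apart. On log2 CPM its correlation with water-deficit replicates 1 and 3 was 0.852 and 0.880, and with the salt libraries it was 0.874 to 0.882. Replicates 1 and 3 correlated at 0.934 with each other, and the salt libraries at 0.941 to 0.957. In replicate 2, 114 of the tested transcripts had no count, against 6 to 44 in the other 5 libraries compared. All 18 tested light-harvesting transcripts together reached 77.0 to 81.0 CPM under water deficit and 138 to 178 CPM under salt, so antenna transcripts of leaf chloroplasts were found in every library.

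Of 12429 transcripts tested, 510 were differentially expressed (DEGs) between the stresses, which means an adjusted p (FDR) under 0.01 together with a change of more than 1 on the log2 scale in the quasi-likelihood test of edgeR. That is a background of 4.10% of all tested transcripts. Under water deficit 217 were higher than under salt (1.75%) and 293 were lower (2.36%). The higher ones lay further apart, with a median log2FC of 1.74 and 28 above 3, while the lower ones had a median size of 1.38 and 17 beyond 3. An unadjusted p below 0.05 was found for 3340. The 3 water-deficit libraries did not overlap the 3 salt libraries in 456 of the DEGs, and in 28.5% of all tested transcripts. All but 2 of the lower DEGs were free of overlap, but only 165 of the 217 higher ones. The 510 DEGs came from 485 components of the assembly, so a few are contigs of the same locus. With library totals as the only scaling the median log2FC of all tested transcripts moved from 0.02 to -0.38, and 63 were called higher and 259 lower, so directions here are relative to the bulk of transcripts. The number of DEGs was 982 without water-deficit replicate 2, 160 without replicate 1 and 106 without replicate 3. It was 260, 210 and 282 without salt replicates 1, 2 and 3. None of the 510 changed sign in any of the 20 alternatives in which it was tested. Of 98 DEGs named below, 46 to 96 were called when 1 library was left out, and a call is said to hold where it was made whichever of the 6 was missing. Scaling is a separate limit, since with library totals 25 of the 98 calls were lost. A log2FC is water deficit minus salt unless another contrast is named, ± is its standard error, and each group has 3 libraries. In leaf tissue as a whole, fewer cells of a type and less RNA per cell cannot be told apart.

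**Figure D1:**
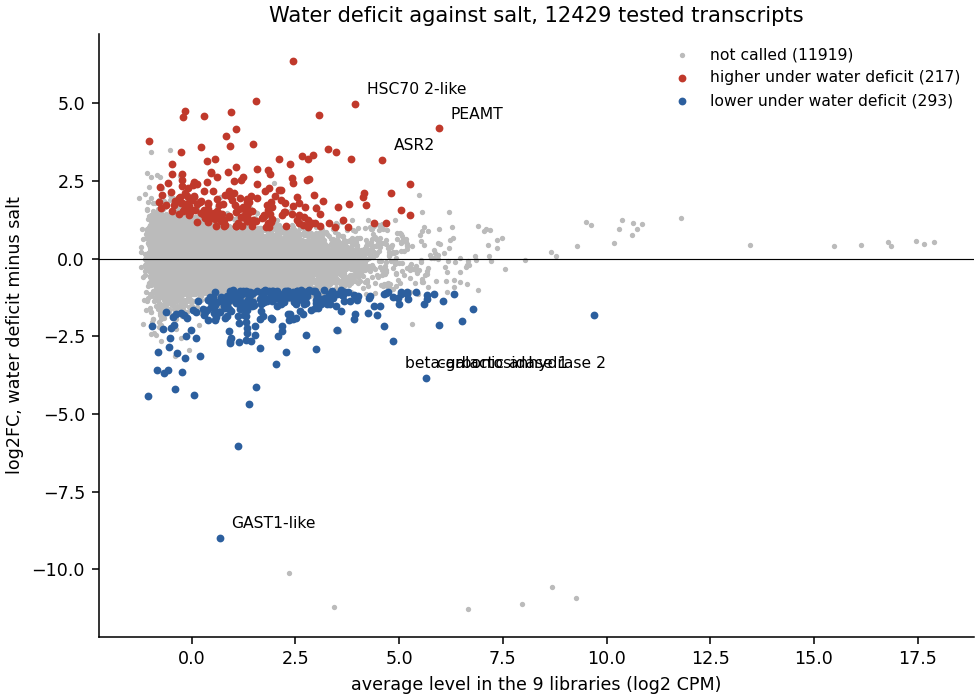
Difference between water deficit and salt (y axis, log2FC) against the average level in 9 libraries (x axis, log2 CPM) for the 12429 tested transcripts. The 217 DEGs above 0 were higher under water deficit and the 293 below 0 were lower, and the lowest grey points are 6 transcripts with larger differences than any DEG that did not reach the FDR limit.

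Set beside the control, the DEGs fell into a few patterns. The contrasts with the control use the same salt and water-deficit libraries and share the controls, so these counts place the DEGs and add no evidence. Of the 217 transcripts higher under water deficit, 73 were DEGs below control under salt and 71 were DEGs above control under water deficit. In 74 neither stress differed from control by the call. Of the 293 lower ones, 97 were above control under salt and 116 below control under water deficit, and 81 had neither call. Opposite calls, above control in one stress and below it in the other, were found for 1 DEG in each direction. The median higher DEG stood at a log2FC of -0.92 under salt and 0.85 under water deficit against control. For the median lower DEG the values were 0.54 and -0.89. Background rates of these calls were 3.53% (higher) and 6.61% (lower) for salt, and 2.75% and 6.95% for water deficit.

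The description of a transcript was available for 915 of those tested, nearly all from the study's list of DEGs between salt and control, which is held only in part here, and 185 of the 510 DEGs had one. That list was selected on the same salt libraries that are used here. A transcript listed as lower under salt is therefore more likely to appear higher under water deficit, and the reverse, whatever water deficit did. Of 519 tested transcripts from the part higher under salt, 101 were lower and 7 were higher under water deficit than under salt. Of 575 from the part lower under salt, 69 were higher and 27 were lower. The other names came from the study's clusters of ortholog transcripts, which were formed on values that included these libraries. The direction of any group named below is therefore not independent evidence. Among the described transcripts 67 were higher and 118 lower, with a median log2FC of -0.22, against 0.02 over all tested. That is 20.2% called, the background for the gene lists, all drawn from them. The share called was largest in the lists of raffinose sugars (4 tested), carbon fixation, heat shock proteins, plastid ribosomes and cell wall. It was above this background by less in proline and betaine, light harvesting, cuticle, photosystem cores and senescence. The last 2 were close to it, with 3 of 10 photosystem core members lower, and 1 of 8 senescence members higher and 1 lower. In the other lists the share was not above the background.

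**Figure D2:**
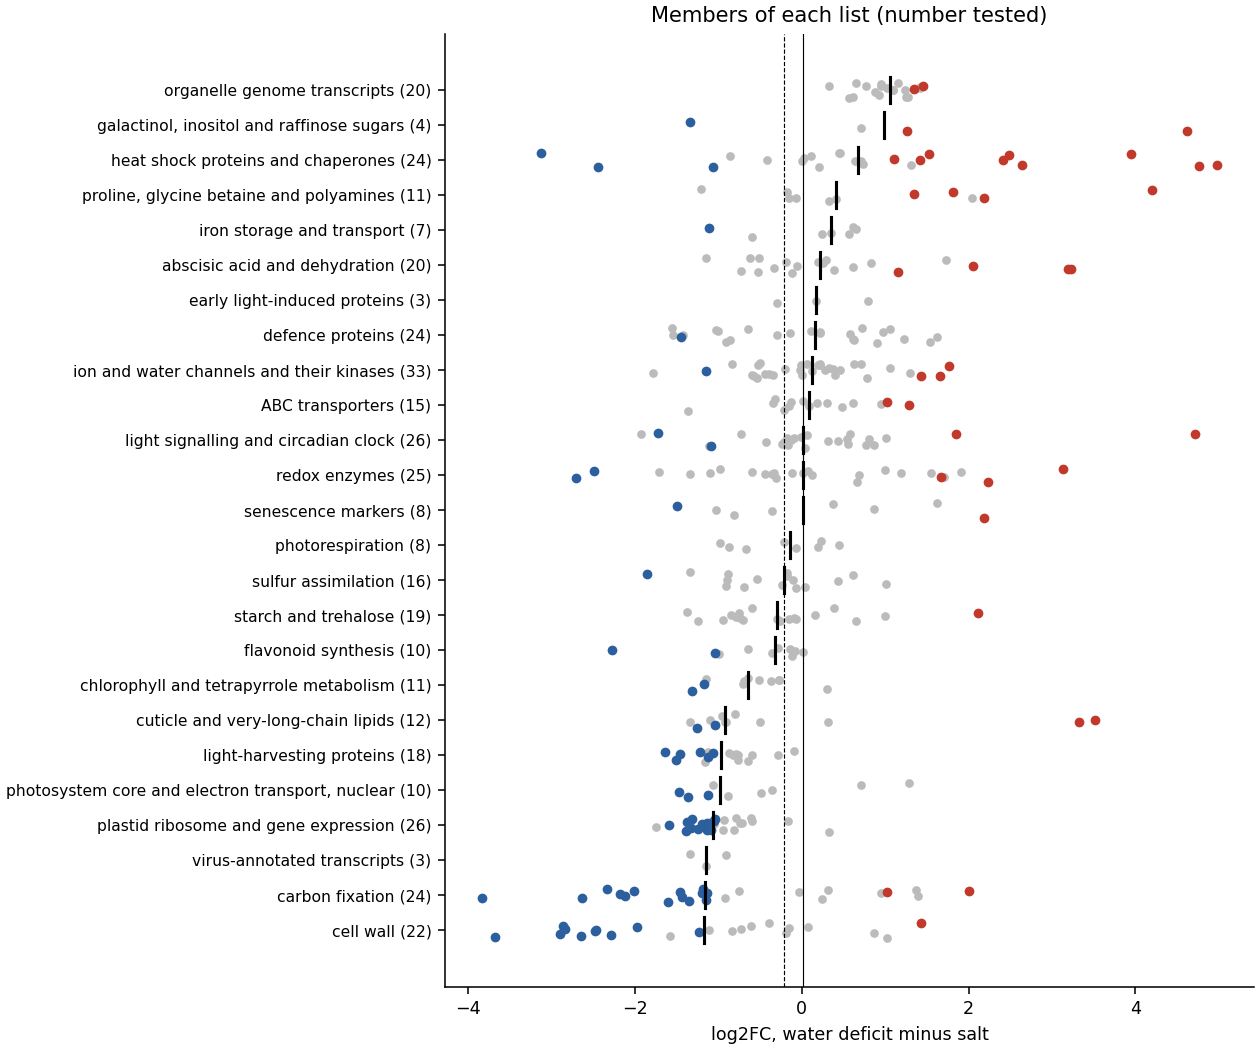
Each point is 1 tested member of a list, at its log2FC between water deficit and salt (x axis), red where it was a DEG with a higher and blue with a lower level under water deficit, grey where it was not called. Black ticks are list medians, the solid line the median of all tested transcripts (0.02) and the dashed line that of the described ones (-0.22), and the lists of cell wall and carbon fixation have the lowest medians (-1.18 and -1.16).

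Heat shock proteins and chaperones, which keep other proteins folded, held the described transcript with the highest log2FC. Heat shock cognate 70 kDa protein 2-like (DN8232_c0_g4_i1) had 1.19, 1.08 and 1.08 CPM in salt replicates 1, 2 and 3, and 51.9, 8.97 and 44.5 CPM in the water-deficit replicates. The groups did not overlap, and replicate 2 of water deficit was the low one. It was 31.6-fold higher under water deficit than under salt (log2FC 4.98 ± 0.46, FDR 1.0e-05). Control libraries had 9.60, 10.0 and 9.47 CPM, close to that replicate. A second contig of the same assembly component (DN8232_c0_g3_i1) had 5.12, 3.46 and 5.24 CPM under salt and 26.1, 23.6 and 23.4 CPM under water deficit, with all 3 water-deficit libraries close together (log2FC 2.41 ± 0.22, FDR 1.0e-05). Here the control was far above both stresses, at 76.4, 93.1 and 88.7 CPM. Reads of close paralogs that map to more than 1 place were not counted, so the shares of the 2 contigs are uncertain. The small chaperone 17.4 kDa class I heat shock protein (DN23770_c0_g1_i1) had 0.320, 0.271 and 0.216 CPM under salt and 3.02, 1.49 and 6.96 CPM under water deficit (log2FC 3.95 ± 0.45, FDR 9.9e-05). This one was above control under water deficit, with a log2FC of 2.48, FDR 5.8e-04, and not called under salt, at -1.47, FDR 0.113. Heat shock protein 83 (DN952_c0_g2_i1), of the HSP90 family, had 5 counts in the salt libraries together and 90 in the water-deficit ones (log2FC 4.77 ± 0.62, FDR 2.5e-04). HSP90 relative heat shock cognate protein 80 (DN8381_c0_g1_i1) had 16.4, 15.0 and 16.5 CPM under salt and 45.7, 34.8 and 48.0 CPM under water deficit (log2FC 1.42 ± 0.20, FDR 3.6e-04). Heat shock factor protein HSF30 (DN19638_c0_g1_i1), a factor that activates heat shock genes, had 0.228, 0.352 and 0.162 CPM under salt and 1.35, 1.09 and 2.23 CPM under water deficit (log2FC 2.64 ± 0.37, FDR 3.6e-04). Controls had 53.2, 54.9 and 59.6 CPM of heat shock cognate protein 80 and 2.27, 3.43 and 2.41 CPM of HSF30. Both were DEGs below control under salt (log2FC -1.80 and -3.31). Under water deficit neither differed from control by the call (log2FC -0.38 and -0.68, FDR 0.188 and 0.105). In the list as a whole, 9 of 24 tested members were higher and 3 were lower, with a median log2FC of 0.68. The list median against control was -1.79 under salt and -0.69 under water deficit. From the part of the study's list lower under salt came 17 of the 24. The number of higher members ranged from 6 to 12 over the alternatives. The calls given here held, except that of HSF30, which was lost without water-deficit replicate 3 (FDR 0.0123). With library totals as the only scaling, heat shock cognate protein 80 was not called (FDR 0.0884). HSF30 and heat shock cognate protein 80 were named after their values were seen.

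The 3 members that were lower under water deficit are all J-domain proteins, the co-chaperones that deliver clients to HSP70. Chaperone protein DnaJ, chloroplastic (DN6921_c0_g1_i1) had 5.80, 6.09 and 6.81 CPM under salt and 0.794, 1.77 and 1.09 CPM under water deficit (log2FC -2.44 ± 0.22, FDR 1.0e-05). It was almost absent from the controls, at 0.0842, 0.0715 and 0.0831 CPM. A further contig of this component (DN6921_c0_g3_i1) had no count in any control library, 174 counts under salt and 11 under water deficit. Against the floor of 3 counts over the control group, salt was at least 28.4-fold higher than control. The remaining one, named to complete the count, was DN2713_c0_g2_i1 at a log2FC of -1.06. Another J-domain transcript, DnaJ homolog subfamily B member 3 (DN5708_c0_g1_i1), went the other way, with 0.411, 0.379 and 0.378 CPM under salt and 2.22, 1.63 and 2.49 CPM under water deficit (log2FC 2.49 ± 0.31, FDR 1.6e-04). Its controls were above both stresses, at 2.53, 3.50 and 4.82 CPM. Against control it was a DEG under salt (log2FC -3.20) and not under water deficit (-0.71, FDR 0.0506). J-domain proteins thus stood on both sides of the contrast, and the calls of the 3 transcripts with CPM or count values above held.

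Abscisic acid is the hormone of closing stomata and of drying seeds. Its signalling and dehydration list had 4 of 20 tested members higher under water deficit and none lower, with a median log2FC of 0.22, and the share called, 20.0%, was that of all described transcripts. From the part lower under salt came 11 of the 20, and 7 from the part higher. ASR2 protein, named for abscisic acid, stress and ripening (DN8197_c1_g1_i1), had 4.34, 4.73 and 6.32 CPM under salt and 82.4, 7.47 and 49.2 CPM under water deficit. All 3 water-deficit libraries were above the salt libraries, but replicate 2 only just (log2FC 3.19 ± 0.51, FDR 0.00109). The call was lost without salt replicate 1 or 2, with FDRs up to 0.0109. A second ASR2 transcript (DN5793_c0_g2_i1) had 2.42, 3.17 and 3.46 CPM under salt and 17.2, 3.26 and 16.1 CPM under water deficit, where replicate 2 lay among the salt libraries (log2FC 2.06 ± 0.37, FDR 0.00212). Its call was lost whenever a library other than water-deficit replicate 2 was left out (FDR up to 0.0235). The dehydrin-like transcript (DN1154_c0_g2_i1), coding for a protein that shields membranes and enzymes in drying cells, had 3.20, 3.30 and 3.13 CPM under salt and 53.1, 2.99 and 33.0 CPM under water deficit (log2FC 3.22 ± 0.56, FDR 0.00177). Replicate 2 of water deficit was below every salt library. This dehydrin, too, was not called when any of the other 5 libraries was missing (FDR up to 0.0143), and without replicate 2 its log2FC was 3.74, FDR 1.2e-10. Controls had 18.9 to 22.6 CPM of the first ASR2 transcript, 6.73 to 8.37 of the second and 9.14 to 10.7 of the dehydrin. Replicate 2 of water deficit was below every control for each. None was a DEG against control under water deficit (FDR 0.0951, 0.174 and 0.0364). Under salt only the first ASR2 transcript was, below control (log2FC -2.01, FDR 0.00806).

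Protein phosphatases 2C are a large family, and some members are brakes on abscisic acid signalling that the hormone itself induces in *Arabidopsis thaliana*. Protein phosphatase 2C 37 (DN7888_c0_g1_i1) had 5.12, 5.01 and 5.73 CPM under salt and 15.7, 7.07 and 11.9 CPM under water deficit, without overlap (log2FC 1.15 ± 0.23, FDR 0.00410). Against control its log2FC was -0.04, FDR 0.935 under salt and 1.12, FDR 0.00293 under water deficit. Its call, too, was lost when any library but water-deficit replicate 2 was missing (FDR up to 0.0320), and with library totals as the only scaling (FDR 0.309). The other 3 phosphatases of the list were not called, with log2FCs of 1.73 (2C 49), 0.39 (2C 56) and -0.73 (2C 34). Xanthoxin dehydrogenase, which acts near the end of abscisic acid synthesis, was represented by 3 transcripts, none called, with log2FCs of 0.61, -0.12 and -0.33 (DN685_c0_g2_i1, DN22963_c0_g1_i1 and DN3444_c0_g1_i1). The first had 0.137, 0.271 and 0.378 CPM under salt, 0.238, 0.679 and 0.394 CPM under water deficit and 8.42, 10.9 and 11.4 CPM in controls. The third had 7 counts under salt and 3 under water deficit, a ratio of 1.29 with a 95% interval from counting error of 0.295 to 7.74. The list's most abundant member, described as zeaxanthin chloroplastic (DN6643_c0_g3_i1), had 8.54, 8.66 and 8.86 CPM under salt and 19.9, 9.78 and 16.1 CPM under water deficit and was not called (FDR 0.0264).

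Glycine betaine is the solute that amaranths and their relatives are known to accumulate under stress, made from choline by choline monooxygenase. Upstream of it, phosphoethanolamine N-methyltransferase (DN7175_c0_g1_i1), which makes phosphocholine, had 5.67, 5.93 and 3.89 CPM under salt and 145, 4.89 and 134 CPM under water deficit (log2FC 4.19 ± 0.74, FDR 0.00198). Replicates 1 and 3 of water deficit were above all controls (47.2, 105 and 108 CPM), and replicate 2 was level with the salt libraries. A second transcript of this enzyme (DN2882_c0_g1_i1) showed the same split, with 1.33, 1.11 and 1.19 CPM under salt and 8.34, 0.408 and 6.39 CPM under water deficit (log2FC 2.19 ± 0.47, FDR 0.00618). Choline monooxygenase itself (DN7247_c0_g1_i1) had 14.0, 17.2 and 19.8 CPM under salt and 130.2, 9.24 and 69.6 CPM under water deficit. It was not called (log2FC 2.04 ± 0.55, FDR 0.0234), and without water-deficit replicate 2 its log2FC was 2.56, FDR 4.0e-06. In the same list, proline transporter 2-like (DN6787_c0_g1_i1) and probable polyamine oxidase 4 (DN2189_c0_g1_i1) were higher at log2FCs of 1.81 and 1.35, again with replicate 2 inside or below the range of salt. The calls of these 4 higher transcripts were lost without each salt replicate in turn and without water-deficit replicate 3, and those other than DN7175_c0_g1_i1 also without replicate 1, with FDRs up to 0.0997. Proline dehydrogenase (DN6932_c0_g3_i1), the first enzyme of proline breakdown, did not differ by the test, with 3.88, 4.71 and 4.21 CPM under salt and 3.73, 7.88 and 5.95 CPM under water deficit (FDR 0.228). Both stresses were above its control level of 0.673, 0.858 and 0.582 CPM. Altogether 4 of 11 tested members were higher and none was lower (median log2FC 0.41, 6 of 11 from the part lower and 3 from the part higher under salt).

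**Figure D3:**
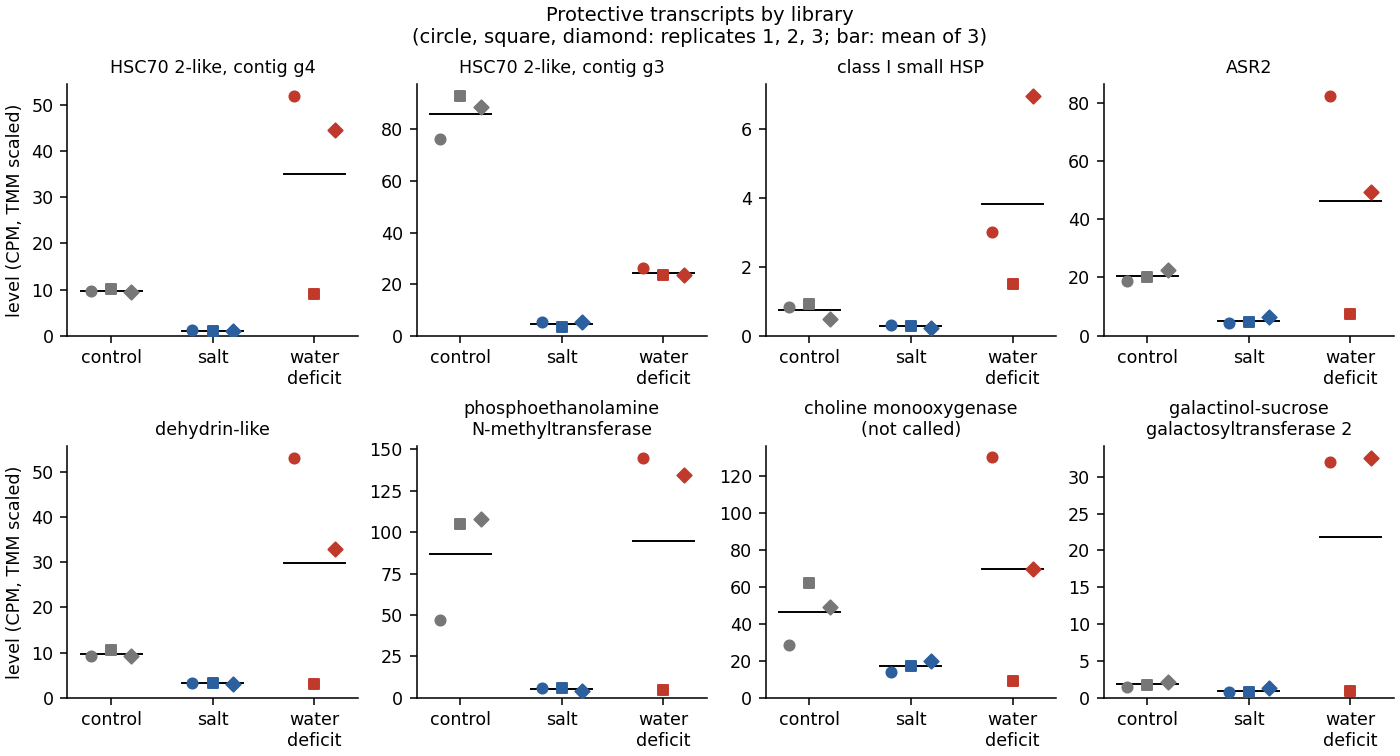
Levels of 8 protective transcripts (y axes, CPM from 0) in each library of control, salt and water deficit, with the replicates as circles, squares and diamonds and the mean of 3 as a bar. Water-deficit replicate 2 (square) lies near the salt libraries for ASR2, dehydrin-like, phosphoethanolamine N-methyltransferase, choline monooxygenase and galactosyltransferase, and above them for the heat shock transcripts.

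Raffinose sugars are built from galactinol, and 4 transcripts of this route were tested, 2 from the part lower and 1 from the part higher under salt. Probable galactinol-sucrose galactosyltransferase 2 (DN6702_c0_g1_i1), the enzyme that makes raffinose, had 0.777, 0.731 and 1.30 CPM under salt and 32.0, 0.951 and 32.6 CPM under water deficit (log2FC 4.62 ± 0.69, FDR 6.0e-04). Its name came from an ortholog cluster. Replicates 1 and 3 stood far above controls (1.52, 1.79 and 2.16 CPM) and replicate 2 lay among the salt libraries, and the call held. Galactinol synthase 1-like (DN17394_c0_g1_i1), the enzyme one step earlier, was high only in that replicate: it had 1.05, 0.785 and 1.08 CPM under salt and 0.794, 4.08 and 0.919 CPM under water deficit, and was not called (FDR 0.340). Inositol oxygenase 1 (DN7924_c0_g2_i1), which breaks down myo-inositol, was higher in all 3 water-deficit libraries, at 4.21, 7.47 and 4.77 against 2.28, 2.35 and 2.00 CPM (log2FC 1.26 ± 0.23, FDR 0.00248). Alpha-galactosidase 2 (DN19515_c0_g1_i1), of the enzymes that remove galactose from raffinose sugars, was the list's lower member, at 1.03, 1.36 and 1.05 against 2.60, 3.08 and 2.70 CPM (log2FC -1.34 ± 0.23, FDR 0.00150). The oxygenase was not called without each salt replicate in turn or water-deficit replicate 3, and the galactosidase without salt replicate 2 and water-deficit replicates 1 and 3, with FDRs up to 0.0167 and 0.0235. With library totals as the only scaling the FDR of the oxygenase was 0.318.

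In carbohydrate storage, 1 of 19 tested starch and trehalose members was called, and 11 of the 19 came from the part higher and 6 from the part lower under salt. The median log2FC was -0.29, with 14 of the 19 values below 0. The share called was 5.26%, against 20.2% of all described transcripts. Without water-deficit replicate 2 the count of called members was 2 higher and 1 lower. Beta-amylase 1, chloroplastic (DN3518_c0_g1_i1), which degrades starch, had 6.12, 5.22 and 6.97 CPM under salt and 44.0, 8.43 and 25.9 CPM under water deficit (log2FC 2.11 ± 0.37, FDR 0.00191). Its controls had 22.6, 20.1 and 22.2 CPM. Against control it was a DEG under salt (log2FC -1.83, FDR 0.00178) and not under water deficit (0.29, FDR 0.637). Granule-bound starch synthase (DN4958_c0_g1_i1) overlapped between the stresses, at 6.67, 3.98 and 4.65 CPM and 10.9, 4.08 and 8.49 CPM, both far below controls at 83.2, 101 and 102 CPM. A chloroplast glucose-6-phosphate/phosphate translocator (DN745_c0_g1_i1) was nearly silent under salt, with 9 counts in 3 libraries, and had 68 counts under water deficit (log2FC 3.68 ± 0.58, FDR 9.4e-04). The controls had 267 counts, and both stresses were DEGs below control (log2FC -5.81 under salt and -2.13, FDR 2.5e-04, under water deficit). Malate synthase (DN20100_c0_g1_i1), of the glyoxylate cycle that turns fat into sugar precursors, had 0.823, 0.758 and 0.756 CPM under salt and 9.45, 1.63 and 3.06 CPM under water deficit (log2FC 2.62 ± 0.49, FDR 0.00255). The amylase was not called when any library but water-deficit replicate 2 was missing, the synthase without each salt replicate in turn or water-deficit replicate 1, and the translocator without salt replicate 2, with FDRs up to 0.0171, 0.0207 and 0.0119.

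Carbon fixation showed the reverse direction and the most DEGs of any list. Of 24 tested members, 14 were lower under water deficit than under salt and 2 were higher, with a median log2FC of -1.16. The source of 21 of the 24 was the part of the study's list lower under salt. The median member stood at a log2FC of -1.40 under salt and -2.33 under water deficit against control. Carbonic anhydrase 2 (DN8198_c0_g1_i1), of the enzymes that supply bicarbonate to the first fixation step, had 51.0, 54.2 and 32.7 CPM under salt and 2.94, 3.94 and 2.93 CPM under water deficit. It was 14.3-fold lower (log2FC -3.84 ± 0.30, FDR 4.3e-06), with all 3 water-deficit libraries close together and control libraries at 65.2, 124 and 112 CPM. An alpha carbonic anhydrase 1 (DN4784_c0_g2_i1) was lower at 0.635, 0.815 and 0.394 against 3.38, 3.87 and 2.92 CPM, and there the log2FC of salt against control was 0.29, FDR 0.421. A beta carbonic anhydrase (DN746_c0_g1_i1) was lower too, at log2FC -2.34, with overlap of a single pair of libraries. Its call was lost without salt replicates 1 or 2 and without water-deficit replicates 1 or 3 (FDR up to 0.0665), while those of the other 2 anhydrases held.

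Phosphoenolpyruvate carboxylase (DN8278_c0_g3_i1), the first enzyme of the C4 cycle, had 70.4, 82.9 and 60.4 CPM under salt and 13.2, 25.7 and 14.4 CPM under water deficit (log2FC -2.01 ± 0.28, FDR 3.8e-04). A further contig of that component (DN8278_c0_g1_i1), named outside the rule after its values were seen, had a log2FC of -2.12. NAD-dependent malic enzyme, 59 kDa mitochondrial (DN7973_c0_g1_i1), the decarboxylase of this C4 type, had 44.8, 46.1 and 42.9 CPM under salt and 8.18, 11.3 and 10.2 CPM under water deficit (log2FC -2.18 ± 0.20, FDR 1.0e-05). Under salt it was above control (log2FC 1.23, FDR 1.9e-04) and the carboxylase below it (-1.37, FDR 0.00161), with controls of the malic enzyme at 15.3, 21.5 and 20.4 CPM. Phosphoenolpyruvate carboxylase kinase 2-like (DN6327_c0_g1_i1), of the kinases that activate the carboxylase, went the other way, with 4.48, 4.52 and 3.24 CPM under salt and 21.4, 10.5 and 17.0 CPM under water deficit (log2FC 2.00 ± 0.24, FDR 1.4e-04). Controls of the kinase were above every library of both stresses, at 31.0, 35.6 and 29.5 CPM. Its log2FC against control was -2.96 under salt, a DEG, and -0.96 under water deficit, short of the fold limit (FDR 0.00637). The other higher member, named to complete the count, was cytosolic phosphoglycerate kinase 3 (DN4525_c0_g2_i1) at a log2FC of 1.02. The small subunit of Rubisco (DN8208_c0_g1_i1), also named outside the rule, had 28.8, 24.0 and 18.2 CPM under salt and 4.84, 13.7 and 7.79 CPM under water deficit (log2FC -1.46 ± 0.30, FDR 0.00457). Among the calls with CPM values here, that of the small subunit was lost without salt replicates 1 or 2 and water-deficit replicates 1 or 3 (FDR up to 0.0401) and the others held. The 14 lower members became 8, 7, 6 and 5 without salt replicate 1, salt replicate 2, water-deficit replicate 1 and water-deficit replicate 3, and 6 at an absolute log2FC above 2.

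Several enzymes that hand over the organic acids of this cycle were outside the list and were named after their values were seen. Mitochondrial aspartate aminotransferase (DN1435_c0_g1_i1), which turns aspartate back into oxaloacetate, had 12.1, 13.7 and 13.6 CPM under salt and 2.46, 2.17 and 3.06 CPM under water deficit (log2FC -2.31 ± 0.22, FDR 1.2e-05), and the log2FC of salt against control was -0.41, FDR 0.142. Alanine aminotransferase 2 (DN7703_c0_g2_i1), which moves the leftover pyruvate back as alanine, had 28.0, 31.2 and 21.6 CPM under salt and 8.02, 16.7 and 8.80 CPM under water deficit (log2FC -1.29 ± 0.29, FDR 0.00827). A second contig (DN7703_c0_g3_i1) had a log2FC of -1.51, and the calls of both were lost when any library but water-deficit replicate 2 was missing (FDR up to 0.0632). Adenylate kinase 2, chloroplastic (DN24203_c0_g1_i1), which recycles the AMP left when phosphoenolpyruvate is regenerated, had 10.6, 12.4 and 8.37 CPM under salt and 2.30, 3.81 and 2.41 CPM under water deficit (log2FC -1.93 ± 0.26, FDR 2.7e-04). These 3 enzymes were lower in every water-deficit library than in any salt library, and the calls of the first and the last held. Mitochondrial uncoupling protein 5-like (DN19649_c0_g1_i1), whose *Arabidopsis thaliana* relative carries dicarboxylates across the inner mitochondrial membrane, was 10.5-fold lower, at 0.397, 0.136 and 0.350 against 4.20, 2.89 and 3.46 CPM (log2FC -3.39 ± 0.31, FDR 1.0e-05). The most abundant DEG, with the incomplete description phosphate chloroplastic (DN8383_c0_g1_i1), had 772, 743 and 631 CPM under salt and 169, 256 and 181 CPM under water deficit (log2FC -1.82 ± 0.28, FDR 8.2e-04).

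**Figure D4:**
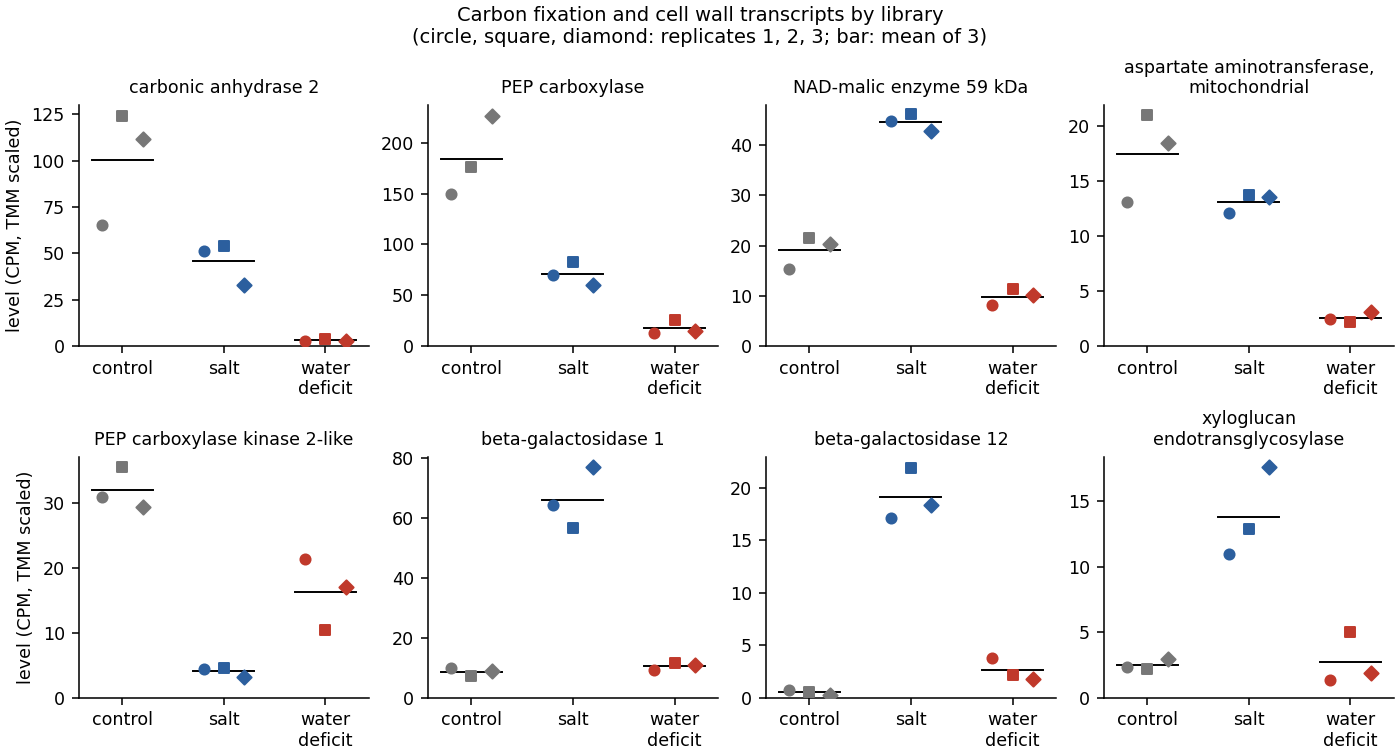
Levels of 5 transcripts of C4 carbon fixation and 3 of the cell wall (y axes, CPM from 0) in each library of control, salt and water deficit, with the replicates as circles, squares and diamonds and the mean of 3 as a bar. The 3 water-deficit libraries lie below all salt libraries in 7 panels and above them for the carboxylase kinase, and the cell wall transcripts and NAD-malic enzyme are highest under salt.

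Of 18 light-harvesting proteins, the antennae of the photosystems, 6 were lower and none was higher (median log2FC -0.97), and all 18 values were below 0. From the part lower under salt came 16 of the 18. Both stresses were below control for most, and the list median against control was -1.97 under salt and -3.04 under water deficit. Chlorophyll a-b binding protein 4 (DN8438_c0_g1_i1) had 45.6, 59.8 and 65.1 CPM in controls, 11.1, 8.98 and 8.21 CPM under salt and 3.26, 2.58 and 3.85 CPM under water deficit (log2FC -1.51 ± 0.23, FDR 6.1e-04). The list's member with the largest difference, photosystem I chlorophyll a/b-binding protein 5 (DN5709_c0_g1_i1), was not among those listed as lower under salt: it had 6.06, 8.37 and 5.82 CPM in controls, 10.6, 11.3 and 10.6 CPM under salt and 2.06, 5.30 and 3.46 CPM under water deficit (log2FC -1.64 ± 0.25, FDR 6.4e-04). Also lower were chlorophyll a/b-binding protein 6 of photosystem I (DN1137_c0_g1_i1) and CP26 of photosystem II (DN7628_c0_g1_i1), at log2FCs of -1.46 and -1.22. The most abundant antenna transcript (DN5199_c0_g1_i1) was lower at -1.07. Only the call of chlorophyll a-b binding protein 4 held among these 5. The 6 calls became 3, 3, 2 and 1 without salt replicate 1, salt replicate 2, water-deficit replicate 1 and water-deficit replicate 3, and 0 at an absolute log2FC above 2.

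Among 10 nuclear transcripts of photosystem cores and electron transport, 3 were lower, namely 2 subunits of the photosystem I reaction center (DN5355_c0_g2_i1 and DN2166_c0_g1_i1, log2FC -1.47 and -1.12) and a PsbP domain protein (DN5220_c0_g2_i1, -1.37). Each of the 3 calls was lost without water-deficit replicate 1, without replicate 3 and without salt replicate 1 (FDR up to 0.0499). Another reaction center subunit (DN7377_c0_g1_i1), the most abundant of the list, missed the FDR limit (log2FC -1.12 ± 0.27, FDR 0.0127). All 10 came from the part lower under salt, and without water-deficit replicate 2 the count of lower members was 6. In chlorophyll synthesis 2 of 11 members were lower, both with names from ortholog clusters. That share of 18.2% was not above the 20.2% of all described transcripts. Of the 11, 6 came from the part lower and 3 from the part higher under salt. Magnesium protoporphyrin IX methyltransferase (DN6473_c0_g1_i1) had 5.67, 5.63 and 4.97 CPM under salt and 1.75, 2.85 and 2.14 CPM under water deficit (log2FC -1.31 ± 0.23, FDR 0.00183), and divinyl chlorophyllide a 8-vinyl-reductase (DN2542_c0_g1_i1) had a log2FC of -1.17. Both calls were lost without salt replicate 2 and without water-deficit replicates 1 or 3 (FDR up to 0.0395), the second also without the other salt replicates. Magnesium chelatase subunit ChlH (DN6585_c0_g2_i1), which starts the chlorophyll branch, was not called at 27.8, 23.3 and 20.1 CPM under salt and 20.0, 16.6 and 22.1 CPM under water deficit, far below controls at 125, 172 and 190.4 CPM. Chlorophyllide a oxygenase (DN435_c0_g1_i1), which makes chlorophyll b, was not called either (log2FC 0.30 ± 0.23, FDR 0.429), and its log2FC turned to -0.10 with library totals as the only scaling. No early light-induced protein (3 tested, all from the part lower under salt) and no member of photorespiration (8 tested, 3 from that part and 1 from the part higher, with 1 lower member without water-deficit replicate 2) was called, and their most abundant members had log2FCs of -0.29 (DN7781_c1_g1_i1) and -0.06 (glycine dehydrogenase, DN8281_c0_g1_i1).

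Plastid ribosomal proteins and other parts of plastid gene expression were lower as well, but from another starting point. Of 26 tested members 13 were lower and none was higher (median log2FC -1.07), and 23 of the 26 came from the part of the list higher under salt. The list median against control was 1.40 under salt and 0.25 under water deficit. A 50S ribosomal protein (DN16204_c0_g1_i1) had 4.12, 4.86 and 4.49 CPM in controls, 10.1, 10.8 and 10.2 CPM under salt and 3.81, 5.30 and 3.63 CPM under water deficit (log2FC -1.33 ± 0.18, FDR 3.2e-04). Among those called, the largest differences were -1.60 for 50S ribosomal protein 5 (DN3509_c0_g1_i1), -1.39 for another 50S protein (DN4415_c0_g2_i1) and -1.37 for a 30S protein (DN7138_c0_g1_i1). The most abundant member, a chloroplast translation initiation factor (DN8361_c0_g1_i1), was below control in both stresses and was not called at log2FC -0.71. Only the first of these named calls held. The 13 calls became 0 at an absolute log2FC above 2, 8 with library totals, and 4, 7, 1 and 1 without salt replicate 2, salt replicate 3, water-deficit replicate 1 and water-deficit replicate 3.

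Cell wall enzymes gave the lowest median of all lists, at a log2FC of -1.18. Of 22 tested members 10 were lower under water deficit and 1 was higher, and 13 of the 22 came from the part higher under salt. The median against control was 1.58 under salt and -0.72 under water deficit. Beta-galactosidase 1 (DN7905_c1_g2_i1), which trims galactose from wall polymers, had 10.0, 7.15 and 9.06 CPM in controls, 64.2, 56.5 and 76.9 CPM under salt and 9.29, 11.6 and 10.9 CPM under water deficit. It was 6.24-fold lower than under salt (log2FC -2.64 ± 0.21, FDR 4.3e-06), and the log2FC of water deficit against control was 0.27, FDR 0.411. Beta-galactosidase 12 (DN7302_c0_g2_i1) had 0.758, 0.500 and 0.249 CPM in controls, 17.1, 21.9 and 18.3 CPM under salt and 3.81, 2.17 and 1.79 CPM under water deficit (log2FC -2.90 ± 0.26, FDR 1.0e-05), and its log2FC against control was 5.23, FDR 8.2e-09 under salt and 2.33, FDR 2.8e-04 under water deficit. Both calls held.

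Enzymes that loosen the wall during growth were among these. A xyloglucan endotransglycosylase/hydrolase (DN5799_c0_g3_i1) had 11.0, 12.9 and 17.6 CPM under salt and 1.35, 5.03 and 1.93 CPM under water deficit (log2FC -2.47 ± 0.32, FDR 2.5e-04). Alpha-expansin 1 (DN6253_c0_g2_i1) had 6.35, 7.60 and 2.21 CPM under salt and 0.556, 1.09 and 0.744 CPM under water deficit (log2FC -2.87 ± 0.46, FDR 0.00103), and salt replicate 3 was the low one of its group. The xyloglucan enzyme relative BRU1-like (DN4930_c0_g1_i1) had 77 counts under salt and 3 under water deficit, a ratio of 14.2 with a counting interval of 4.68 to 70.4. Beta-D-xylosidase 1 (DN2413_c0_g1_i1) and a polygalacturonase (DN28985_c0_g1_i1), which cut hemicellulose and pectin, were lower at log2FCs of -2.48 and -2.84. Outside the list, 2 transcripts described as kDa proline-rich (DN6716_c0_g1_i1 and DN2620_c0_g1_i1) were lower at -4.14 and -2.67, the first with 8.09, 3.33 and 5.19 CPM under salt and 0, 0.544 and 0.394 CPM under water deficit. The higher member, named to complete the count, was cellulose synthase-like protein G1 (DN19428_c0_g1_i1) at 1.43. The calls of the endotransglycosylase, the xylosidase and the first proline-rich transcript held. That of the expansin was lost without water-deficit replicate 3, those of BRU1-like and the polygalacturonase without salt replicate 2 and water-deficit replicates 1 or 3, and that of the second proline-rich transcript without salt replicates 1 or 3 and water-deficit replicates 1 or 3. The 10 lower members became 6, 5 and 4 without salt replicate 2, water-deficit replicate 1 and water-deficit replicate 3.

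At the leaf surface the list of cuticle and very-long-chain lipids had 2 of 12 members called higher and 2 lower. Its median log2FC was -0.92, with 9 of the 12 values below 0, and 10 of the 12 came from the part higher under salt. Without water-deficit replicate 2 the count was 2 higher and 5 lower. Lipid transfer proteins, which bind lipids outside the cell, gave both higher calls from contigs of a single component. The larger (DN4324_c0_g2_i1) had 0.589, 1.14 and 0.415 CPM in controls, 2.70, 1.35 and 2.92 CPM under salt and 35.8, 1.77 and 38.5 CPM under water deficit (log2FC 3.52 ± 0.62, FDR 0.00198), with replicate 2 inside the range of salt. The other (DN4324_c0_g1_i1) had a log2FC of 3.32. A 3-ketoacyl-CoA synthase 10 (DN1303_c0_g1_i1), which lengthens fatty acids for wax and cutin, was lower, at 50.7, 46.5 and 52.6 CPM under salt and 14.5, 29.8 and 18.8 CPM under water deficit (log2FC -1.26 ± 0.23, FDR 0.00248), and a GDSL esterase/lipase (DN6448_c0_g1_i1) was lower at -1.04. Of 10 flavonoid members, 8 from the part higher under salt, 2 were lower, a share of 20.0% that lies at the background of described transcripts. They were an anthocyanidin 3-O-glucosyltransferase 2-like (DN25678_c0_g1_i1, log2FC -2.27) and an isoflavone hydroxylase-like (DN279_c0_g1_i1, -1.04). None of these 6 calls held, and all 6 were lost without water-deficit replicate 3 and without salt replicate 1. Chalcone synthase (DN6813_c0_g5_i1), the entry enzyme of the pathway, overlapped, with 15.6, 14.3 and 20.1 CPM under salt and 6.99, 27.3 and 11.9 CPM under water deficit, where replicate 2 was the high one.

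In light signalling and the clock, 2 of 26 members were called higher and 2 lower (median log2FC 0.02), and 17 of the 26 came from the part lower and 8 from the part higher under salt. The pseudo-response regulator APRR5 (DN7733_c0_g1_i1), of the clock's evening repressors, had 22.4, 22.8 and 20.3 CPM in controls, 1.28, 1.03 and 1.40 CPM under salt and 6.03, 2.85 and 4.03 CPM under water deficit (log2FC 1.84 ± 0.25, FDR 3.3e-04). B-box zinc finger protein 32 (DN19933_c0_g1_i1) was almost silent under salt, with 4 counts against 67 under water deficit (log2FC 4.72 ± 0.71, FDR 6.1e-04). Its water-deficit libraries had 2.54, 0.136 and 1.49 CPM, with replicate 2 close to the highest salt library at 0.0812 CPM. Controls had 5.64, 4.36 and 3.41 CPM, and water deficit was a DEG below control (log2FC -1.53, FDR 0.00789). Constans-like 16-like (DN21251_c0_g1_i1) had no count in the controls, 79 counts under salt and 13 under water deficit (log2FC -1.72 ± 0.39, FDR 0.00990), and a transcript described as at5g37260-like (DN12913_c0_g2_i1) was lower at -1.08 (FDR 0.00990). Against the floor of 3 counts over the control group, the constans-like transcript was at least 12.9-fold higher than control under salt and at least 3.84-fold under water deficit. The calls of both higher members held, and those of both lower members, just inside the FDR limit, were lost without each of the salt replicates and water-deficit replicates 1 and 3, the constans-like one also without replicate 2. With library totals as the only scaling APRR5 was not called (FDR 0.0333). The labels give no time of day for the harvest of each group.

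Redox enzymes, 25 tested, had 3 higher and 2 lower members, a share of 20.0% called that lies at the background of described transcripts. From the part lower under salt came 11 and from the part higher 7. DHAR2 (DN288_c0_g1_i1), a dehydroascorbate reductase that restores ascorbate, had 0.505, 0.357 and 0.499 CPM in controls, 0.320, 0.325 and 0.378 CPM under salt and 3.10, 1.49 and 3.76 CPM under water deficit (log2FC 3.13 ± 0.32, FDR 2.2e-05). It was called under each of the 20 alternatives, and its name came from an ortholog cluster. Probable nucleoredoxin 2 (DN4536_c0_g1_i1), of the thioredoxin superfamily, was above control in both stresses and higher under water deficit, at 12.3, 3.94 and 13.1 against 2.28, 2.30 and 1.89 CPM (log2FC 2.23 ± 0.30, FDR 3.3e-04). The remaining higher member, named to complete the count, was peroxidase 12 (DN19767_c0_g1_i1) at 1.67. Lower were a probable glutathione S-transferase (DN16115_c0_g1_i1), an enzyme family that conjugates glutathione to toxic compounds, at log2FC -2.71, and peroxidase 55-like (DN27590_c0_g1_i1) at -2.49, and these calls and that of the nucleoredoxin held. Catalase-2 (DN7634_c0_g1_i1), which splits hydrogen peroxide, had 34.3, 28.9 and 28.5 CPM under salt and 17.2, 15.8 and 13.6 CPM under water deficit. It passed the FDR limit and not that of the fold (log2FC -0.98 ± 0.20, FDR 0.00544).

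Of 33 channels, transporters of ions and water and their kinases, 3 were higher and 1 was lower (median log2FC 0.12), and 18 came from the part lower and 15 from the part higher under salt. Without water-deficit replicate 2 the count was 3 higher and 2 lower. Chloride channel CLC-e (DN7413_c0_g1_i1), a plastid member of the chloride channel family, had 1.35, 1.57 and 1.08 CPM in controls, 2.74, 3.08 and 2.70 CPM under salt and 1.19, 0.951 and 1.49 CPM under water deficit (log2FC -1.15 ± 0.22, FDR 0.00318). All 3 salt libraries were above the other 6. An NRT1/PTR family transporter (DN6970_c0_g1_i1), a family that carries nitrate and peptides, was higher at 16.0, 12.0 and 17.4 against 4.57, 4.14 and 5.83 CPM (log2FC 1.66 ± 0.20, FDR 1.3e-04), and controls had 13.2, 15.4 and 15.0 CPM. A mitochondrial calcium uniporter-like protein gave the other higher calls from 2 contigs (DN4338_c1_g1_i1 and DN4338_c0_g1_i1, log2FC 1.76 and 1.43). Among 15 ABC transporters, 10 from the part lower and 3 from the part higher under salt, 2 were higher, G family member 22 (DN6606_c0_g1_i1, 1.29) and C family member 14-like (DN24670_c0_g1_i1, 1.03). Of these 6 calls that of the NRT1/PTR transporter held, and the others were lost without salt replicates 1 or 2 and water-deficit replicate 1, among others. With library totals as the only scaling none of the 6 was called (FDR 0.0224 to 0.474, and 0.0395 for the NRT1/PTR transporter). The most abundant members of both lists were not called, a pollux-like ion channel (DN8261_c0_g3_i1) at -0.01 and ABC transporter B family member 1 (DN8314_c1_g1_i1) at 0.30.

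The lists of sulfur assimilation (16 tested), iron (7) and defence (24) had a single call each, all lower under water deficit. Without water-deficit replicate 2 defence had 4 higher and 2 lower members, so its count and direction rest on that library. Of the defence members 13 came from the part lower and 10 from the part higher under salt, of sulfur 8 and 4, and of iron 5 and 2. A chloroplast thiosulfate sulfurtransferase (DN4087_c0_g1_i1), which moves sulfur between small molecules, had 0.337, 0.786 and 0.166 CPM in controls, 6.58, 6.33 and 6.81 CPM under salt and 1.98, 1.09 and 2.01 CPM under water deficit (log2FC -1.86 ± 0.24, FDR 2.2e-04). The metal-nicotianamine transporter YSL7 (DN19676_c0_g1_i1) and a WRKY transcription factor (DN13816_c0_g1_i1) were lower at log2FCs of -1.11 and -1.45. The call of the sulfurtransferase held, and the other 2 were lost without water-deficit replicate 1 or 3. The most abundant members were not called, at -0.89 for a sulfite exporter family protein (DN6720_c0_g2_i1), -0.59 for a ferric reduction oxidase (DN26777_c0_g1_i1) and 0.97 for disease resistance protein RGA1 (DN8397_c0_g1_i1). Of 8 senescence markers, 7 from the part lower under salt, YLS2-like (DN4998_c0_g1_i1) was higher at 2.18 and a senescence regulator (DN23705_c0_g1_i1) lower at -1.49, and the summed level was 15.3 to 16.3 CPM under salt and 11.1 to 21.4 CPM under water deficit. Transcripts of the organelle genomes had log2FCs above 0 in all 20 tested members (median 1.06), and 2 were called higher, orf115b (DN8346_c1_g3_i1, 1.45) and NADH dehydrogenase (DN1360_c0_g1_i1, 1.34). All 20 came from the part lower under salt. Their summed level was 87321 to 140084 CPM under salt and 104105 to 248415 CPM under water deficit, highest in replicate 2, and their part in the other results was not tested beyond leaving them out, which gave 493 DEGs. Of the calls among senescence and organelle transcripts only that of YLS2-like held, and it was lost with library totals as the only scaling. None of 3 virus-annotated transcripts, all from the part higher under salt, was called, and the most abundant (DN8320_c0_g1_i1) had 59.5, 59.4 and 248 CPM under salt, with replicate 3 high, and 49.3, 124 and 23.1 CPM under water deficit, with replicate 2 high.

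Further named DEGs lay outside the lists. Among the higher ones were an OCS element-binding factor 1 (DN16254_c0_g1_i1), a bZIP transcription factor, at log2FC 1.96, and a UDP-glucosyltransferase (DN20606_c0_g1_i1), which attaches sugars to small molecules, at 1.89. In the latter, replicate 2 of water deficit was the highest library, at 6.11, 7.75 and 6.08 CPM against 1.87, 1.43 and 2.11 CPM under salt. A transcript named for 1-aminocyclopropane-1-carboxylate oxidase homolog 1 (DN3873_c0_g1_i1), related to the enzyme that makes ethylene, was lower, at 0.556, 1.09 and 0.963 against 4.98, 3.49 and 8.16 CPM (log2FC -2.64 ± 0.35, FDR 2.5e-04). The largest lower difference of a DEG, named after its values were seen, was GAST1-like (DN1312_c0_g1_i1), a member of a family of small secreted peptides that respond to gibberellin. It had 305 counts under salt and none in the 3 water-deficit libraries, which with a floor of 3 counts over the group makes it at least 56.3-fold lower under water deficit. Salt replicates were uneven, at 4.16, 5.44 and 0.702 CPM, and controls had 1 count. The call was lost without water-deficit replicate 3 (FDR 0.0149), and those of the other 3 held. With library totals as the only scaling the binding factor and the glucosyltransferase were not called (FDR 0.0152 and 0.0219).

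A few DEGs, also named after their values were seen, had higher group means than the control in both stresses. Universal stress protein A-like (DN9716_c0_g1_i1), of a family of small proteins of stressed cells, had 0.421, 0.357 and 0 CPM in controls, 1.19, 1.03 and 0.918 CPM under salt and 6.43, 1.22 and 4.29 CPM under water deficit (log2FC 2.01 ± 0.38, FDR 0.00297). Lysine-ketoglutarate reductase/saccharopine dehydrogenase (DN19721_c0_g1_i1), which starts the breakdown of lysine, had 0.253, 0.429 and 0.332 CPM in controls, 0.914, 1.49 and 1.35 CPM under salt and 16.0, 0.951 and 9.23 CPM under water deficit (log2FC 2.84 ± 0.49, FDR 0.00172). Replicate 2 was again within or next to the range of salt in both. Their calls were lost when any library but water-deficit replicate 2 was missing, and against control only water deficit passed the call for them. In the other direction, an F-box/kelch-repeat protein (DN9253_c0_g1_i1), of a family that marks proteins for breakdown, had no count in the controls, 4.25, 3.52 and 4.38 CPM under salt and 0.953, 0.951 and 0.394 CPM under water deficit (log2FC -2.56 ± 0.29, FDR 1.6e-04). Against the floor of 3 counts over the control group it was at least 49.6-fold higher than control under salt and at least 8.26-fold under water deficit, and the call between the stresses held.

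Of the DEGs, 325 had no usable description, and in each direction the 2 with the largest difference are given among those whose groups did not overlap and whose mean level was not under 1 log2 CPM. DN8403_c2_g3_i1 had 0.421, 1.00 and 0.665 CPM in controls, 0.183, 0.162 and 0.216 CPM under salt and 19.7, 2.72 and 22.5 CPM under water deficit, with the largest log2FC of all DEGs, at 6.37 ± 0.61. It was called under each of the 20 alternatives. DN8197_c0_g1_i1, of the same assembly component as the first ASR2 transcript, had 1.74, 2.41 and 2.32 CPM under salt and 41.0, 5.16 and 22.7 CPM under water deficit (log2FC 3.42 ± 0.46, FDR 3.2e-04). In the lower direction, DN2647_c0_g1_i1 had 272 counts under salt and 2 under water deficit, a ratio of 75.2 with a counting interval of 20.6 to 624, and DN6109_c0_g2_i1 had 251 counts and 5. Both were uneven among the salt libraries, at 6.08, 3.11 and 1.30 CPM and 5.16, 3.17 and 1.13 CPM, and their calls were lost without water-deficit replicate 3, the second also without replicate 1.

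Water-deficit replicate 2 was set against calls made without it. The expression filter over all libraries did use it, and the 3 salt libraries that made the calls were also the reference here. When it was left out, 346 transcripts were higher and 522 lower among those also tested with all libraries. In replicate 2, 62.4% of the 346 lay above all 3 salt libraries and 83.7% of the 522 lay below them, against 33.7% and 36.6% of all tested transcripts. Its median log2 distance from the salt mean was 0.47 for the first set and -0.61 for the second, and that of replicates 1 and 3 together was 1.48 and -1.37. When replicate 1 was left out instead, it lay beyond the salt libraries in 95.5% of the 89 higher and in 100% of the 71 lower transcripts. For replicate 3 the shares were 98.2% of 57 and 100% of 49. In both directions most transcripts of replicate 2 lay on the water-deficit side of salt, at a smaller distance than in its mates. Control libraries lay on that side too. Over the 217 higher DEGs the control medians were 0.78 to 0.86, and that of replicate 2 was 0.80. Over the 293 lower DEGs they were -0.69 to -0.47, and that of replicate 2 was -0.92. With salt as the reference, these shares cannot tell likeness to water deficit from mere distance to salt.

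**Figure D5:**
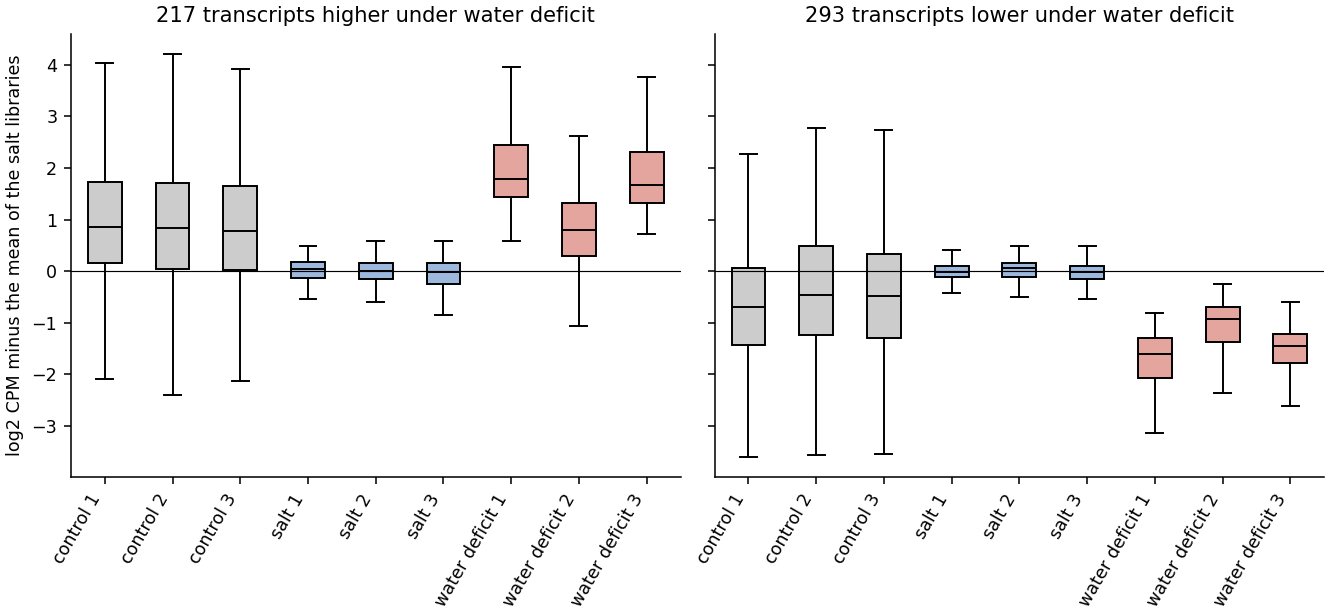
Distance of each library from the mean of the 3 salt libraries (y axis, log2 CPM difference) over the 217 DEGs that were higher (left) and the 293 that were lower (right) under water deficit; boxes show the quartiles and the median, whiskers reach the most extreme value within 1.5 times the box height. Water-deficit replicate 2 has medians of 0.80 and -0.92, replicate 1 of 1.78 and -1.60, and replicate 3 of 1.67 and -1.45, and controls lie on the side of water deficit in both panels.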

How the data were processed

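RNA-seq libraries of *A. hypochondriacus* leaves (TruSeq, single-end NextSeq reads) were trimmed with Trimmomatic, assembled with Trinity, made non-redundant with CD-HIT and aligned with Bowtie2 2.3.0. The raw counts the authors deposited are reads with a unique best alignment per transcript, so reads shared by near-identical transcripts are lost. No genome was used and no sequence is shown.

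The 9 control, salt and water-deficit libraries (10.9 to 20.5 M counts) were fitted together with edgeR 4.0.16 (limma 3.58.1, R 4.3.3): default expression filter, TMM scaling, quasi-likelihood test, FDR by Benjamini-Hochberg over 12429 transcripts. DEGs passed both limits, 0.01 for the FDR and 1 for the size of the log2FC. Standard errors were derived from the F statistic. CPM values were computed with TMM and are not per length, so levels are not compared between transcripts. Ratios of counts below 4 carry exact binomial intervals (95%), which cover counting error only, and the floor for groups at 0 is 3 counts over the group. The median tested transcript had 21 counts a library, and the biological coefficient of variation was 0.191. The scripts were tested on simulated counts.

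Members, gene lists and naming rule were chosen with earlier results of these data known. Named were the 12 described DEGs with the largest log2FC in each direction (average of at least 1 log2 CPM, no overlap), up to 4 called members and the most abundant member of each of 25 lists, a set of fixed genes, 2 undescribed DEGs per direction, and the additions marked in the text. Descriptions, and the direction in which the salt list names a transcript, came from the study's supplement. The 20 alternatives included DESeq2 1.42.0, exact tests, other scaling, filters and thresholds, thinning, a replicate block and leaving out each library. The *A. hybridus* counts were not used, nor were the fold changes and p-values of the study's own comparisons. Python 3.11.15 (numpy 2.4.6, pandas 2.3.3, matplotlib 3.10.9) drew the figures.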

Additional observations from a re-analysis of the deposited data

How the results depend on the processing

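With library totals as the only scaling 322 transcripts were called, 63 higher and 259 lower, so the share of higher calls was 19.6% against 42.5% with TMM. The other scaling, RLE, gave 499. With the 6 compared libraries alone the quasi-likelihood test gave 346 calls, 144 of them higher. Without a filter 461 were lower. An FDR below 0.05 gave 893 (400 higher, 493 lower), and an absolute log2FC above 2 gave 128 (77 higher, 51 lower, 60.2% higher). DESeq2 called 446, of which 404 were shared with the 510. Leaving out each library in turn gave 106 to 982 calls, 57 to 441 higher and 49 to 541 lower, with the low end without water-deficit replicate 3 and the high end without replicate 2, and 103 and 498 of the 510 among them. A replicate block gave 416 calls (151 higher, 265 lower, 387 shared). The plants were placed in randomized blocks by the study's methods, but the labels do not tie a replicate number to one. The block cost 8 of the named calls, those of DN2882_c0_g1_i1, DN6787_c0_g1_i1, DN2189_c0_g1_i1, DN746_c0_g1_i1, DN2166_c0_g1_i1, DN6448_c0_g1_i1, DN21251_c0_g1_i1 and DN8346_c1_g3_i1. Samples were not treated as paired by replicate number. Deviations of same-numbered salt and water-deficit libraries correlated at 0.03, -0.04 and -0.09 (-0.06 to 0.13 for the other pairs). So few values cannot show that blocks had no effect. Of the 98 named DEGs, 27 were called under all 20 alternatives and none reversed. Reversals were found only for transcripts that were not called. With library totals, chlorophyllide a oxygenase DN435_c0_g1_i1 turned to -0.10, proline dehydrogenase DN6932_c0_g3_i1 to -0.016 and ABC transporter B family member 1 DN8314_c1_g1_i1 to -0.12. Over the left-out libraries the range crossed 0 for galactinol synthase DN17394_c0_g1_i1 (-0.11 without water-deficit replicate 2 to 1.18), xanthoxin dehydrogenases DN22963_c0_g1_i1 (-0.33 to 0.30) and DN3444_c0_g1_i1 (-0.75 to 0.42), both positive without salt replicate 2, chalcone synthase DN6813_c0_g5_i1 (-0.79 without water-deficit replicate 2 to 0.22 without replicate 1), glycine dehydrogenase DN8281_c0_g1_i1 (-0.13 to 0.050) and DN8320_c0_g1_i1 (-1.76 to 0.12 without salt replicate 3). The pollux-like channel DN8261_c0_g3_i1, at -0.0069, had log2FCs of 0.0057 (DESeq2), 0.016 (exact test on 6 libraries), 0.016 (quasi-likelihood test on 6), 0.0061 (RLE), 0.042 (CPM above 1), 0.045 (thinned), 0.00063 (20 most abundant left out), 0.017 (organelle transcripts left out), 0.0047 (replicate block) and -0.17 to 0.19 without single libraries. The cause of none of these changes was tested. The smallest libraries limit low transcripts, with 114 tested transcripts at 0 in water-deficit replicate 2.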

Other observations

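The 6 transcripts with the largest differences between the stresses had no description and were not called, with log2FCs of -10.1 to -11.3 and FDRs of 0.0107 to 0.0522. All were near 0 in every water-deficit library and uneven within the other groups. DN8411_c0_g1_i1 had 2.44, 3025 and 3.32 CPM in control replicates 1, 2 and 3, 2448, 23.5 and 53.1 CPM in the salt replicates, and 0.318, 0.544 and 0.438 CPM under water deficit. DN6675_c0_g1_i1 had 0.168, 43.4 and 0 CPM in the controls, 0, 21.0 and 29.2 CPM under salt and no count under water deficit. In each of the 6, control replicate 2 was the highest control library.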
